A study of Mus musculus with 6 samples.

Results

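Gli3 binding sites were examined at promoters where genes on opposite strands of the DNA start close to each other. A site was counted as an opposite-strand pair site when it lay on chromosomes 1 to 19 and its midpoint was within 2 kb of the transcription start site (TSS) of a protein-coding transcript and also within 2 kb of a TSS of another gene, of any type, on the opposite strand. By this rule, 435 of the 4114 sites in the list used here were pair sites (10.6%, 95% Wilson interval 9.67% to 11.6%). The study's text states a larger total than this list holds, and any sites beyond the list were not analysed here. The sites came from cerebral cortices of wild-type mouse embryos at embryonic day 15 (E15), from which 3 chromatin immunoprecipitation (ChIP) libraries made with a Gli3 antibody and 3 libraries of input DNA, the chromatin before precipitation, were sequenced. No genotype other than wild type and no treatment entered the list. The authors called peaks and kept those that recurred between replicates in an irreproducible discovery rate (IDR) analysis, and each peak is listed by position and name, with no height. The replicates were joined, so no value per embryo and no error between embryos can be given, the read depth behind a site is unknown, and the intervals and p-values below cover counting over sites only. The dissected cortex holds several cell types, which the list does not separate.

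Gli3 is the zinc finger transcription factor through which the Sonic hedgehog (Shh) pathway acts in the dorsal forebrain, where it works mainly as a repressor. GLI factors recognise a short core sequence, and a repressor bound between genes that start back to back can in principle lie upstream of both. Opposite-strand promoters are common in mammals, often lie in CpG islands, and serve many genes of DNA repair, mitochondria and chromatin, as well as coding genes paired with a noncoding RNA.

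The GLI core GACCACCCA was found in 37 of the 435 pair sites (8.51%), beside 12.2% of all sites on these chromosomes. The following cores are shown because they lie at genes of the Shh pathway, at neural regulators, closest to the midpoint of their site, or between or close to the start sites, and they were read from the GRCm38 sequence (mm10). Each is printed 5′ to 3′ on the strand that holds the core, with 10 flanking bases on either side and the core in capitals.
*Ptch1*/*Gm30655*, chr13:63573455-63573483, minus strand: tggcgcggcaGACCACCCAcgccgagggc
*Nkx2-2*/*6430503K07Rik*, chr2:147188241-147188269, minus strand: gcccgggtccGACCACCCAggacgcgccg
*Sox8*/*2810468N07Rik*, chr17:25571274-25571302, minus strand: gcctccgccaGACCACCCAggcccgcccg
*Wnt7b*/*AU022754*, chr15:85582207-85582235, plus strand: aagagagagaGACCACCCAccaccatctc
*Zfp707*/*Eif2s3x-ps1*, chr15:75969010-75969038, plus strand: aaaacccacaGACCACCCAtatcaacgga
*Paox*/*Echs1*, chr7:140116221-140116249, plus strand: ggggtttaggGACCACCCAgaggttatgg
*Nnat*/*Blcap*, chr2:157560155-157560183, plus strand: ccttgctctcGACCACCCAcccactttcg
*Arl5b*/*Nsun6*, chr2:15055230-15055258, minus strand: ctacgcccggGACCACCCAtcgccggaag
*Fancd2*/*Emc3*, chr6:113531422-113531450, plus strand: cgatgggcagGACCACCCAgaggcggatg
*Park7*/*Tnfrsf9*, chr4:150914415-150914443, plus strand: ctcgggggtgGACCACCCAgaacgcctcc
*Aak1*/*2610306M01Rik*, chr6:86849448-86849476, minus strand: cgtcggctccGACCACCCAcccggaagtg

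The DNA between the start sites held the nearest GLI core at 9 of the 37 sites. At *Paox*/*Echs1*, *Ssrp1*/*P2rx3* and *Cetn3*/*Gm17259*, among these 9, each gene is transcribed towards the TSS of its partner. There the DNA between the start sites lies downstream of both. The whole stretch between head-to-head TSSs is shown for pair sites in which it is at most 300 bases long, lies inside the site, holds no annotated exon and belongs to a gene of the gene lists described below. These stretches are printed on the plus strand of GRCm38 from the base after the left TSS to the base before the right TSS, with capitals marking matches, on either strand, to the motifs compared below.
*Ogg1*/*Gm15492*, chr6:113326748-113326971: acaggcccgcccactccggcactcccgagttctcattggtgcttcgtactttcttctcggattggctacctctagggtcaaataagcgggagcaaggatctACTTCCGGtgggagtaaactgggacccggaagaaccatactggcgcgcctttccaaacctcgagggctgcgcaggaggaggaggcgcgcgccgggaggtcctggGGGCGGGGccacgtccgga
*Kdm4c*/*A230083N12Rik*, chr4:74251715-74251935: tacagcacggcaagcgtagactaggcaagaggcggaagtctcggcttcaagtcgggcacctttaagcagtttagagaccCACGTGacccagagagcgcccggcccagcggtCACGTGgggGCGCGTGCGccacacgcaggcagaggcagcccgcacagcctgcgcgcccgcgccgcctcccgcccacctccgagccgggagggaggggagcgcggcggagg
*Rps29*/*Rn7s1*, chr12:69159187-69159294: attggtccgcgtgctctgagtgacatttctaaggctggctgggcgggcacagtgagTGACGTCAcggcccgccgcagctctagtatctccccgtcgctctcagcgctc
*Hist1h2bf*/*Hist1h2ad*, chr13:23574197-23574380: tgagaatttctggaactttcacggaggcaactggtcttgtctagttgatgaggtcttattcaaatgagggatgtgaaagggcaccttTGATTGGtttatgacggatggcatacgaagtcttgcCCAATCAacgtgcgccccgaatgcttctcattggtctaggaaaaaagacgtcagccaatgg
*Hist1h2ac*/*Hist1h2bc*, chr13:23683949-23684198: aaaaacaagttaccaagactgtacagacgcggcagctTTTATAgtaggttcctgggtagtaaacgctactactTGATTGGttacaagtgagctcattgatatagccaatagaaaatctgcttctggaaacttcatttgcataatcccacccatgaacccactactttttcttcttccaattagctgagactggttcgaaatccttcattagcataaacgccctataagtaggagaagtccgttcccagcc

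These stretches differed widely in composition. The 221 bases between *Kdm4c* and *A230083N12Rik* had a GC content of 71.0% and held 1 NRF1 and 2 E-box motifs. The 224 bases between *Ogg1*, a DNA glycosylase that removes oxidised guanine, and *Gm15492* held an ETS and an SP motif. The 108 bases between *Rps29* and *Rn7s1* held a CRE motif. The stretch of the histone pair *Hist1h2bf*/*Hist1h2ad* had a GC content of 46.2% and 2 NFY motifs, and that of *Hist1h2ac*/*Hist1h2bc* had a GC content of 41.6%, 1 NFY motif and 1 TATA motif.

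The 435 sites were then sorted by what the partner gene was. At 162 of them (37.2%, 32.8% to 41.9%) protein-coding genes started on both strands, and at the other 273 (62.8%, 58.1% to 67.2%) the partner was noncoding. Antisense genes were the partner at 114 sites (26.2%), lincRNAs at 44, processed transcripts at 34, loci of the annotation class TEC, which await experimental evidence, at 32, bidirectional promoter lncRNAs at 29, miRNAs at 4 and other types at 16. Most sites, 396, had TSSs of 2 genes within 2 kb of the midpoint, 29 had TSSs of 3 genes, 8 of 4 genes and 2 of 5 genes. The sites belonged to 430 different gene pairs, since 5 pairs had 2 sites each. Among these were *Kmt2c*, *Tle3*, *Adgrb3* and *Bcl7a*, each with a noncoding partner.

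Genes can start close together in different arrangements. In the head-to-head arrangement the genes are transcribed away from each other, and 278 of the 435 sites (63.9%, 59.3% to 68.3%) had it. The DNA between the TSSs used here is not always untranscribed, since other transcripts of either gene can cover it: of 138 such stretches of 20 to 300 bases that lay inside their site, 59 held no annotated exon. Counted by gene over the annotation, 4418 of all 6355 paired coding genes, as defined below, were head-to-head, with or without a site. At the other 157 sites each gene was transcribed towards the TSS of its partner, an arrangement here called overlapping 5′ ends. Head-to-head pairs made up 128 of 162 sites with coding genes on both strands (79.0%, 72.1% to 84.6%) and 150 of 273 sites with a noncoding partner (54.9%, 49.0% to 60.7%). Among noncoding partners, 36 of 44 lincRNAs were head-to-head (81.8%, 68.0% to 90.5%) and 45 of 114 antisense genes (39.5%, 31.0% to 48.6%). These shares describe the annotation at the sites, since antisense genes are named for lying opposite another gene.

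**Figure D1:**
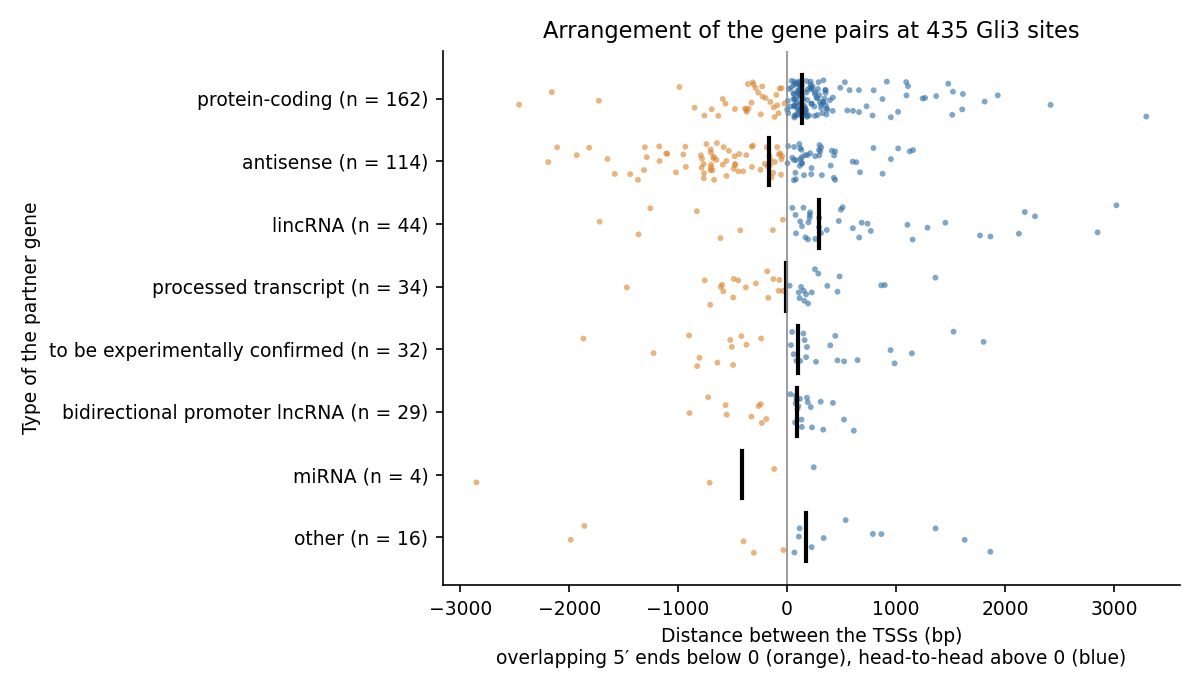
Distance between the TSSs of the gene pair nearest to the midpoint of each of the 435 sites, in bp on the horizontal axis, by the type of the partner gene. Each point is a site, blue for head-to-head pairs and orange for overlapping 5′ ends, and the black bars are medians; protein-coding and lincRNA partners lie mostly to the right of 0 and antisense partners mostly to the left.

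The start sites of head-to-head pairs were close. Their median distance was 226.5 bp (95% interval of the median 193 to 283, n = 278), and 164 of the 278 pairs (59.0%) were at most 300 bp apart. Close starts are common in the annotation too, where the partner of 2241 of the 4418 head-to-head coding genes started at most 200 bp away. That count is over genes and at another distance, so it is background and not a comparison. The median was 214.5 bp for coding pairs (167 to 270, n = 128) and 258.5 bp for pairs with a noncoding partner (208 to 320, n = 150), with intervals that overlapped. Among the head-to-head coding pairs with the shortest distances were *Pus10*/*Pex13* (1 bp), *Glod4*/*Mrm3* (11 bp), *Zfp668*/*Zfp646* (19 bp) and *1700028J19Rik*/*2410002F23Rik* (27 bp). *Pex13* encodes a protein of peroxisome biogenesis. Pairs with overlapping 5′ ends had TSSs 507 bp apart in the median (419 to 608, n = 157).

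Most sites reached over both starts. Both TSSs lay inside the site at 355 of 435 sites (81.6%, 77.7% to 85%), only the TSS of the gene named first at 38, only that of its partner at 23 and neither at 19. The rule asked for both TSSs within 2 kb of the midpoint and the nearest pair was taken, so these counts are a description. The share with both TSSs inside was 86.4% (140 of 162, 80.3% to 90.9%) for coding genes on both strands. With a noncoding partner it was 78.8% (215 of 273, 73.5% to 83.2%), with intervals that overlapped, and this too is a description. The midpoint itself lay between the TSSs at 142 sites (32.6%, 28.4% to 37.2%). Of the bases of the head-to-head sites, 14.6% lay between the TSSs, so that the greater part of these sites covered transcribed sequence on either side. Both TSSs were within 500 bp of the midpoint at 198 sites.

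For the 273 sites with a noncoding partner, the midpoint could be compared with both kinds of start. It was a median of 349 bp (280 to 433) from the coding TSS and 493 bp (432 to 609) from the noncoding TSS. The rule used both distances, so this is a description. The midpoint was nearer to the coding TSS at 154 sites (56.4%). With only the 5′ end of each gene counted, the share was 45.4%, so the direction depended on which annotated TSSs were used.

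The rule was set at 2 kb. The members closest to it, by the distance to the farther TSS, were *Ier2*/*Gm26664* (1993 bp), *Galnt16*/*Gm26777* (1991 bp), *Negr1*/*4930570G19Rik* (1973 bp) and *Kcnh8*/*Gm27217* (1969 bp). The nearest sites outside it were *Maf*/*Gm15655* (2070 bp), *Prune1*/*Mindy1* (2082 bp), *Plxnb1*/*Gm7628* (2086 bp) and *Katnal1*/*Gm43600* (2087 bp).

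Pair sites were next compared with the 1085 sites at unpaired coding promoters, which had a coding TSS within 2 kb of the midpoint and no opposite-strand TSS of another gene within that distance. Width and sequence were not used to choose the members. The pair sites had the greater width, 2397 bp in the median (2258 to 2540, n = 435) against 2156 bp (2072 to 2237, n = 1085), a difference of 241 bp (two-sided permutation test with 100000 resamples, p = 0.00268, adjusted p = 0.00402 over 3 measures). For sites with coding genes on both strands the difference of 206.5 bp did not pass the threshold (permutation test, p = 0.104). The median width was 2362.5 bp with coding genes on both strands and 2399 bp with a noncoding partner (permutation test, p = 0.785).

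The widest pair site, 9258 bp, lay over *Gse1* and *1700016A09Rik*. The next were the sites at *Hes5*/*Gm20421* (8160 bp), *Bahcc1*/*2900052L18Rik* (7705 bp), *Trim46*/*Krtcap2* (7174 bp) and *Pou3f2*/*Gm30731* (6321 bp). *Hes5* encodes a Notch effector that keeps radial glial cells undifferentiated, and *Pou3f2* encodes a POU-domain factor of cortical progenitors and upper-layer neurons. The narrowest were at *Fkbp14*/*Plekha8* (310 bp), *Agtpbp1*/*A930015P04Rik* (400 bp), *Tead1*/*2310014F06Rik* (475 bp), *Nudt6*/*Spata5* (478 bp) and *Slc35e1*/*Gm17435* (510 bp). Sites of at least 4 kb made up 59 of 435 pair sites (13.6%, 10.7% to 17.1%) and 121 of 1085 unpaired sites (11.2%, 9.41% to 13.2%), with overlapping intervals.

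CpG dinucleotides, which are depleted from most of the genome but kept in CpG islands, were measured in the central 500 bp of each site as the observed number over that expected from the C and G content. The median was 0.743 (0.714 to 0.781) in pair sites and 0.669 (0.639 to 0.689) in unpaired sites, a difference of 0.0734 (permutation test, p = 2.90e-04, adjusted p = 8.70e-04). A ratio of at least 0.6 was found at 292 pair sites (67.1%, 62.6% to 71.4%) and 625 unpaired sites (57.6%, 54.6% to 60.5%). The share was 67.3% with coding genes on both strands and 67.0% with a noncoding partner. Counted by gene over the annotation, with or without a site, promoters reached 0.6 for 4270 of 6355 paired genes and 6287 of 14367 unpaired genes, as defined below. A higher CpG ratio thus went with paired promoters in general, and its part in the difference between sites was not tested. The medians of GC content itself, 60.6% and 60%, did not differ by the threshold (permutation test, p = 0.468).

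**Figure D2:**
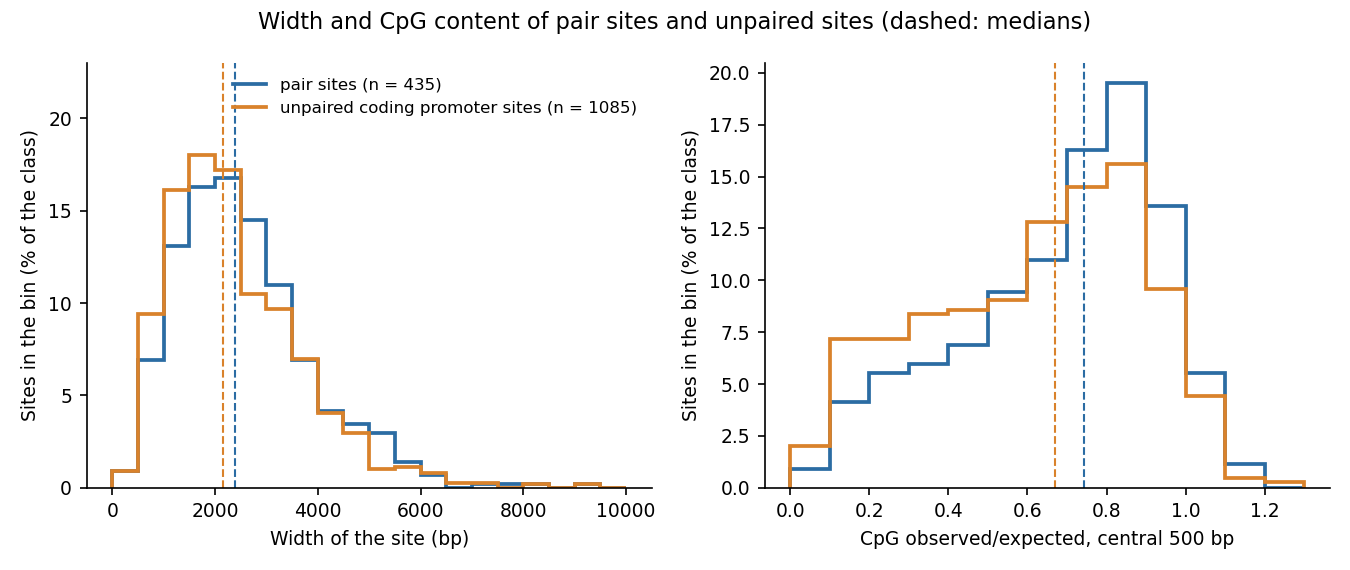
Width in bp (left) and CpG observed/expected in the central 500 bp (right) of the 435 pair sites (blue) and the 1085 unpaired coding promoter sites (orange), as the percent of each class per bin. Dashed lines are the medians, 2397 and 2156 bp for width and 0.743 and 0.669 for CpG; the pair sites are shifted to the right in both panels, with broad overlap.

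The GLI core did not differ in frequency between pair sites and unpaired sites beyond the error of the counts. It occurred in 37 of 435 pair sites (8.51%, 6.23% to 11.5%) and 94 of 1085 unpaired sites (8.66%, 7.13% to 10.5%), an odds ratio of 0.980 (0.639 to 1.48, two-sided Fisher's exact test, p = 1.00). Over all sites on chromosomes 1 to 19 the share was 12.2%, and it was 14.9% (327 of 2190) in sites with no TSS within 2 kb. Within the pair sites it was 9.26% (15 of 162) with coding genes on both strands and 8.06% (22 of 273) with a noncoding partner (odds ratio 1.16, 0.543 to 2.43, Fisher's exact test, p = 0.723). The core was in the central 500 bp of 13 pair sites (2.99%, 1.75% to 5.05%). In the 500 bp around a coding TSS it was in 0.434% of all coding promoters, in 3.18% of those of paired genes with a site and in 0.249% of those of paired genes without one.

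Within the sites the core did not sit at a fixed place. The nearest core was a median of 383 bp (226 to 631, n = 37) from the midpoint, and within 250 bp of it at 14 of the 37 sites, while in unpaired sites the median was 417.5 bp (326 to 518, n = 94). It was within 500 bp of the nearer TSS at 28 of the 37 sites, with a median of 188 bp and a range of 9 to 2885 bp. It lay between the TSSs at 9 sites. By the annotation, the core was in an intron at 17 sites, in the UTR of a coding transcript at 8, in another exon at 7, in coding sequence at 3 and outside transcripts at 2. In the head-to-head sites 6 cores were counted between the TSSs (0.588 per 10 kb), 8 beyond the TSS of the gene named first (0.252 per 10 kb) and 10 beyond that of its partner (0.360 per 10 kb). These are too few to show a difference, and their order changed with the kind of pair. For coding genes on both strands the density was highest between the TSSs (0.941 per 10 kb). For noncoding partners it was highest beyond the partner TSS (0.420, against 0.336 between). With a noncoding partner, the nearest core was on the strand of the coding gene at 9 of 22 sites (40.9%, 23.3% to 61.3%; two-sided exact binomial test, p = 0.523).

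**Figure D3:**
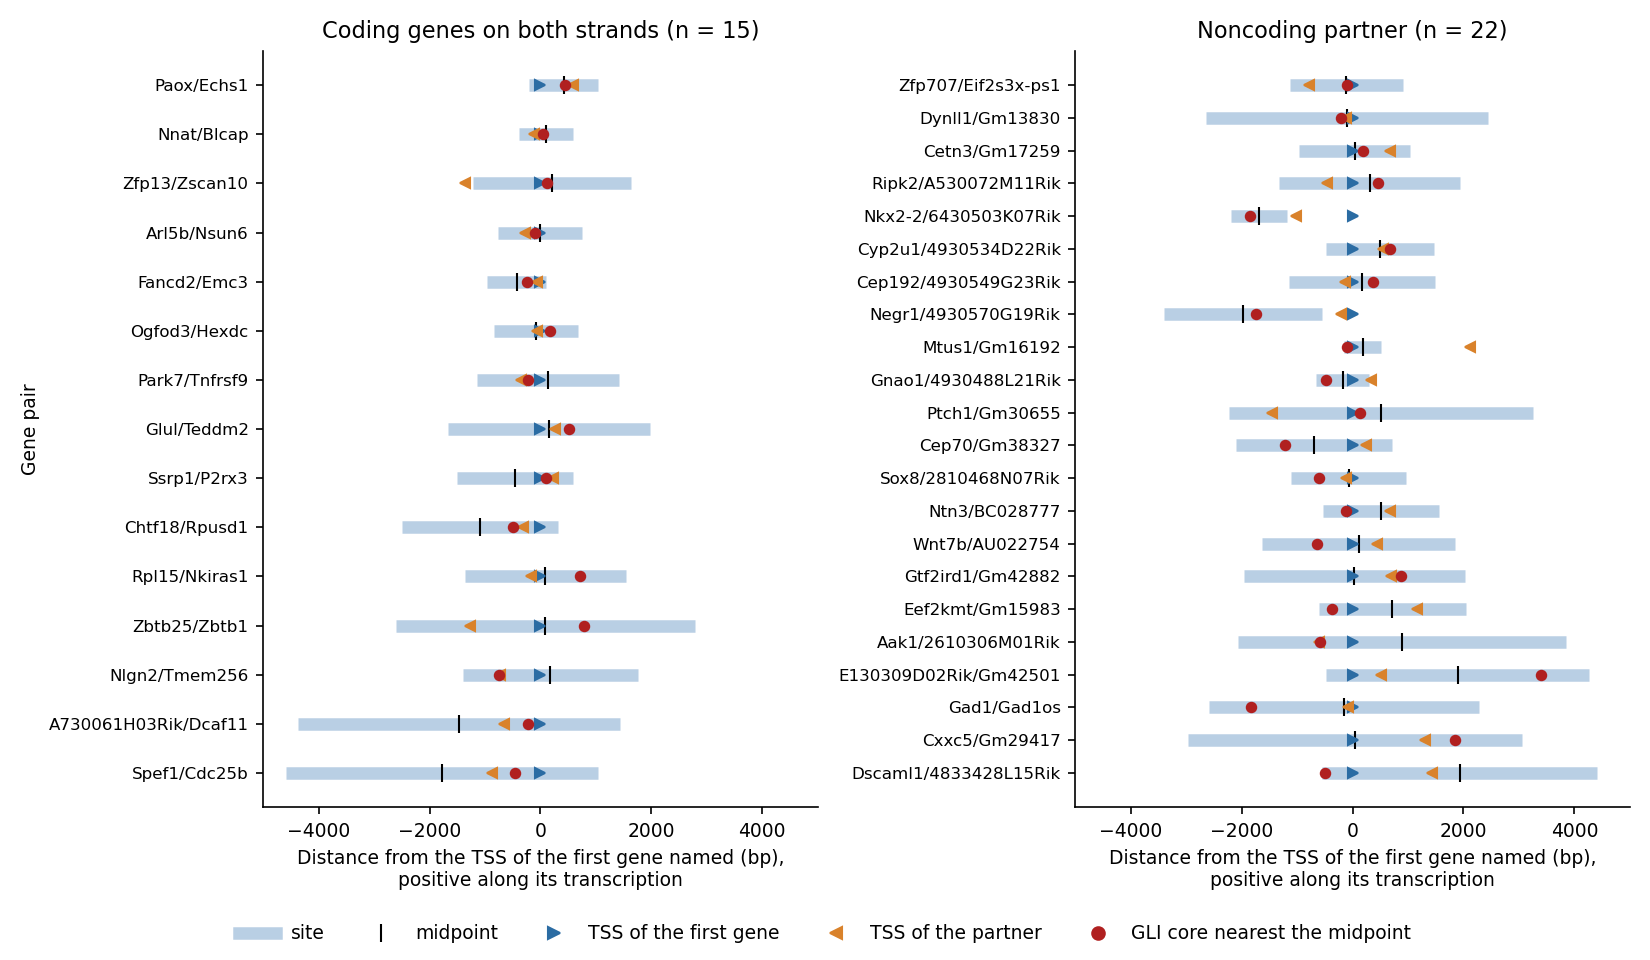
The 37 pair sites with a GLI core, 15 with coding genes on both strands (left) and 22 with a noncoding partner (right), drawn to scale in bp from the TSS of the first gene named. Bars are sites, black ticks their midpoints, blue and orange triangles the TSSs of the first gene and of its partner, and red dots the core nearest to the midpoint; the dots lie on either side of the TSSs and between them at 9 sites.

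Among the core-bearing sites with coding genes on both strands, the core was nearest to the midpoint at *Paox*/*Echs1*, 19 bp away. *Paox* encodes a polyamine oxidase and *Echs1* a mitochondrial enzyme of fatty acid oxidation. At *Nnat*/*Blcap* the core was 64 bp from the midpoint and 39 bp from the TSS of *Nnat*, in its UTR; *Nnat* is an imprinted gene expressed in the developing brain. At *Zfp13*/*Zscan10*, a pair of zinc finger genes, it was 88 bp from the midpoint. *Arl5b*/*Nsun6* had a core 96 bp from the midpoint that lay between the TSSs used, 103 bp from that of *Arl5b* and 175 bp from that of *Nsun6*, and in the UTR of a transcript of *Arl5b*. *Fancd2*, a gene of the Fanconi anaemia pathway of DNA repair, and *Emc3* shared a site of 1067 bp with a core 183 bp from its midpoint, in coding sequence of *Emc3*.

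The same distance was 248 bp at *Ogfod3*/*Hexdc*, 354 bp at *Park7*/*Tnfrsf9* and 357 bp at *Glul*/*Teddm2*. *Glul* encodes glutamine synthetase, and *Park7* encodes a protein of the response to oxidative stress. At *Park7*/*Tnfrsf9* the core again lay between the TSSs used, 223 bp from that of *Park7* and 133 bp from that of *Tnfrsf9*, and in the UTR of a transcript of *Park7*. The remaining pairs of the nearest 12 were *Ssrp1*/*P2rx3* (558 bp), *Chtf18*/*Rpusd1* (591 bp), *Rpl15*/*Nkiras1* (624 bp) and *Zbtb25*/*Zbtb1* (691 bp). *Ssrp1* encodes a subunit of the histone chaperone FACT, and *Chtf18* a subunit of a complex that loads the replication clamp.

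Among the sites with a noncoding partner, *Zfp707* with the pseudogene *Eif2s3x-ps1* had a core 15 bp from the midpoint, between the TSSs and outside any transcript. *Dynll1*/*Gm13830* (112 bp), a site of 5079 bp with 2 cores at the gene of a dynein light chain, came next, and then *Cetn3*/*Gm17259* (142 bp), *Ripk2*/*A530072M11Rik* (158 bp), *Nkx2-2*/*6430503K07Rik* (166 bp) and *Cyp2u1*/*4930534D22Rik* (186 bp). *Cetn3* encodes a centrin of the centrosome. At *Nkx2-2*, a homeodomain factor that Shh induces in the ventral neural tube and that acts in oligodendrocyte precursors, the site of 1017 bp did not cover the TSS: its core was 1851 bp from the *Nkx2-2* TSS and 831 bp from that of the antisense partner, in an exon of the partner.

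The others of the nearest 12 were *Cep192*/*4930549G23Rik* (196 bp), *Negr1*/*4930570G19Rik* (226 bp), *Mtus1*/*Gm16192* (278 bp), *Gnao1*/*4930488L21Rik* (302 bp), *Ptch1*/*Gm30655* (383 bp) and *Cep70*/*Gm38327* (517 bp). *Cep192* and *Cep70* encode centrosomal proteins, as *Cetn3* does. *Ptch1* (ENSMUSG00000021466.12) encodes the receptor of Shh and is itself a target of the pathway. Its site spanned 5475 bp (chr13:63570349-63575823), and the core, in the UTR of *Ptch1*, was 129 bp from the *Ptch1* TSS and 1582 bp from that of the lincRNA *Gm30655*, which started 1453 bp away on the other strand.

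Other promoter motifs were compared in the central 500 bp of the sites, and not over the whole site as the GLI core was. In all 11 were searched on both strands, none of them contained in another, and none passed the threshold there (two-sided Fisher's exact tests, adjusted over the 11). Over the whole site 4 of the 11 passed it, with higher odds in the wider pair sites: SP (odds ratio 1.45), NRF1 (1.52) and ETS (1.69), each with an adjusted p of 0.0108 by Fisher's exact test, and E-box (1.33, adjusted p = 0.0444). The part of the width in these was not tested. Windows centred on a site and windows centred on a TSS do not cover the same DNA, so shares in all coding promoters are background and not a comparison. The motif of SP factors, GGGCGGGG, was in 28.3% of pair sites (24.2% to 32.7%) and 27.4% of unpaired sites (24.8% to 30.1%), against 27.4% of the 500 bp windows around the TSSs of all coding genes. The motif of NRF1, GCGCNTGCG, a factor of nuclear genes for mitochondria, was in 8.05% of pair sites and 6.36% of unpaired sites, beside 10.4% of all coding promoters. In windows centred on the TSS, NRF1 was in 16.7% of paired genes with a site and 14.6% of paired genes without one, and SP in 41.4% and 31.5%. The ETS motif, CCGGAAGT, was in 5.75% and 3.87%, beside 6.10% of all coding promoters, and in the TSS windows in 8.98% of paired genes with a site and 9.15% without. The lowest unadjusted p-value, 0.0597 by Fisher's exact test, belonged to the THAP11 motif, ACTACAATT, found in 4 pair sites and 2 unpaired sites and in 0.594% of all coding promoters (adjusted p = 0.612).

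The NFY motif, CCAATCA, was found in 5.98% of pair sites, 5.62% of unpaired sites and 9.83% of all coding promoters. For the TATA motif, spelled TATAAA here, the same 3 shares were 10.1%, 12.2% and 16.1%. The E-box CACGTG was in 12.4% of pair sites, 10.4% of unpaired sites and 10.4% of promoters. The shares of the CRE motif, which was searched as TGACGTCA, were 2.30%, 1.57% and 2.69%. Those of the YY1 motif, searched as AAGATGGCG, were 2.30%, 2.21% and 2.88%. The bHLH motif CAGCTG reached 25.5%, 24.7% and 26.4%. The homeobox motif, with the letters TAATTA, was in 5.75% of pair sites, 7.19% of unpaired sites and 6.61% of promoters. None of these 7 differences passed the threshold.

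The question could also be asked from the side of the genes. Of the 20722 protein-coding genes on chromosomes 1 to 19, 1659 (8.01%) had the midpoint of a Gli3 site within 2 kb of a coding TSS, and 592 (2.86%) were at a pair site. A coding gene was called paired when a gene on the opposite strand started within 4 kb of one of its TSSs. This differs from the 2 kb around a midpoint used for sites, so a site called unpaired above can lie at a gene called paired here. Of 6355 paired genes, 724 had a site (11.4%, 10.6% to 12.2%), and of 14367 unpaired genes, 935 had one (6.51%, 6.12% to 6.92%). Of the 724, 592 were at a pair site. Genes that share a site are counted separately here, so the intervals are too narrow. No test was made over genes.

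The promoters of the classes differed in CpG content, and the difference between them was smaller where CpG content was high. At a ratio of at least 0.6, 13.5% of paired genes (12.5% to 14.5%, n = 4270) and 11.5% of unpaired genes (10.8% to 12.3%, n = 6287) had a site. Below 0.6 the shares were 7.15% (6.12% to 8.33%, n = 2085) and 2.61% (2.29% to 2.98%, n = 8080), and in the lowest bin, under 0.3, they were 4.57% and 1.15%. Genes with 1 annotated coding TSS had a site in 10.1% of cases when paired and 4.42% when not, and genes with 5 or more in 16.4% and 13.1%. A gene with more TSSs has more places where a site can fall within 2 kb, and the part of this in the shares was not tested.

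The distance between head-to-head starts went with the share as well. It was 11.4% (10.2% to 12.8%) for genes whose partner started up to 200 bp away, 15% (12.4% to 17.9%) from 201 to 500 bp, 14.3% (10.9% to 18.6%) from 501 to 1000 bp, 9.07% (6.71% to 12.2%) from 1001 to 2000 bp and 6.19% (4.72% to 8.10%) from 2001 to 4000 bp. The first 3 intervals overlap each other, and the last lies below them. By the type of partner, the share was 10.9% (9.87% to 12%) for coding partners, 13.4% (11.5% to 15.5%) for antisense genes, 12.3% (9.69% to 15.5%) for lincRNAs, 12.7% (9.40% to 17%) for processed transcripts, 14.2% (10.5% to 19.1%) for TEC loci and 17.7% (12.9% to 23.9%) for bidirectional promoter lncRNAs. It was 9.68% (5.18% to 17.4%) for miRNAs and 5.82% (4.17% to 8.06%) for other types, whose intervals include the 6.51% of unpaired genes.

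**Figure D4:**
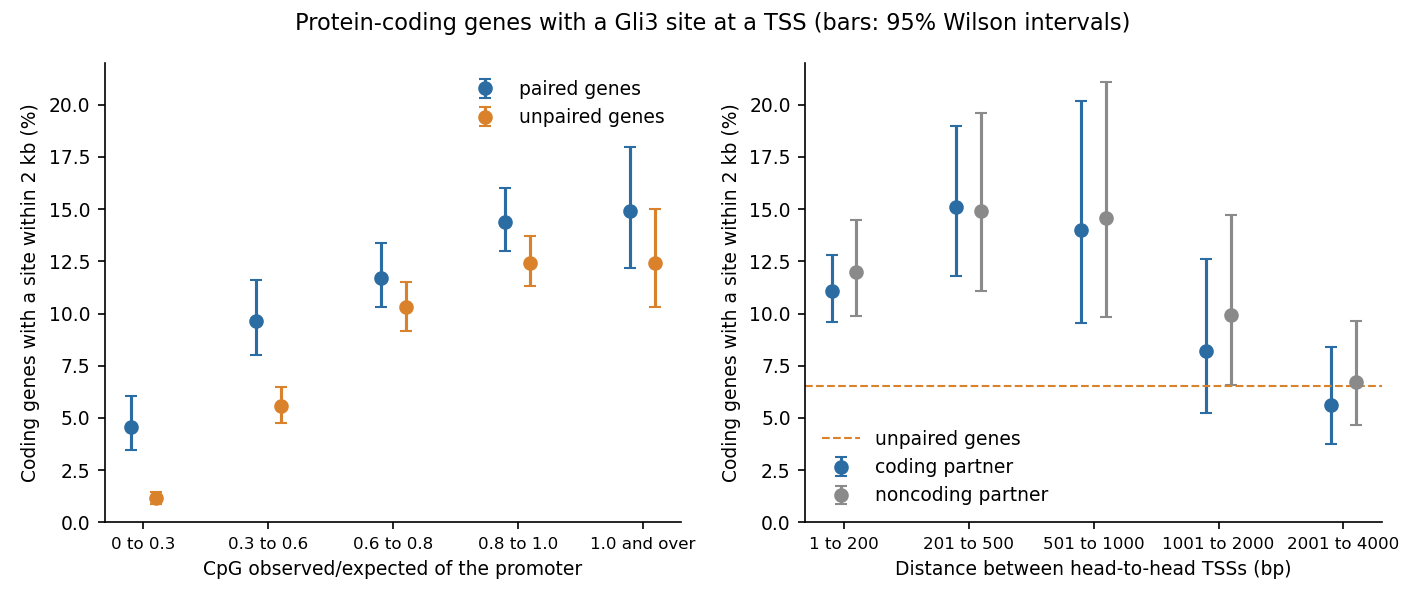
Percent of protein-coding genes with a Gli3 site midpoint within 2 kb of a coding TSS, by the CpG observed/expected of the promoter (left, paired genes blue, unpaired genes orange) and by the distance between head-to-head TSSs in bp (right, coding partner blue, noncoding partner grey, all unpaired genes dashed). Points are shares and bars 95% Wilson intervals; paired genes lie above unpaired genes in every CpG bin, and the intervals are apart below 0.6, while on the right the shares are lowest from 2001 to 4000 bp.

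The genes at the pair sites were then described by function. Of the genes of 9 lists, those for histones had the highest share at pair sites, 17 of 67 genes (25.4%) in 8 sites, beside 2.86% of all protein-coding genes. Replication-dependent histone genes lie in clusters and 59 of the 67 were paired, so that the arrangement the rule asks for is common among them. Of all 20722 protein-coding genes 6355 were paired, and 9.32% of these paired genes were at a pair site. The lists below differ in their number of paired genes, and the part of this in their shares was not tested. The 8 sites were at *Hist1h2bl*/*Hist1h3h*, *Hist1h2ak*/*Hist1h2bn*, *Hist1h2bh*/*Hist1h3f*, *Hist1h4f*/*Hist1h1d*, *Hist1h2bf*/*Hist1h2ad* and *Hist1h2ac*/*Hist1h2bc* on chromosome 13, at *Hist4h4* on chromosome 6 and at *Hist2h3c1* with *Hist2h2aa1* on chromosome 3. They were 536 to 3116 bp wide. None held a GLI core, beside 8.51% of all pair sites, and 8 sites are too few to show a difference. Histone genes are near-identical copies, so the placement of reads among them, and with it these sites, is uncertain.

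Of 109 chromatin regulators, 51 were paired and 9 (8.26%, beside 2.86% of all protein-coding genes) were at 11 pair sites. Over all paired genes the share was 9.32%. The 9 were *Tle3* and *Kmt2c*, with 2 sites each, *Kmt2a*, *Kmt2e*, *Smarcc1*, *Kdm4c*, *Brd2*, *Arid2* and *Ring1*. *Kmt2a*, *Kmt2c* and *Kmt2e* belong to the family of H3K4 methyltransferases, *Smarcc1* and *Arid2* are subunits of SWI/SNF remodelling complexes, and *Tle3* is a Groucho family corepressor. The site nearest to its gene was a site of 2492 bp at *Tle3*, with its midpoint 15 bp from the TSS, followed by *Kmt2a* (83 bp), *Smarcc1* with *Dhx30* (311 bp) and *Kdm4c* (450 bp). On the whole list 33 genes had a site at a TSS (30.3%, beside 8.01% of all protein-coding genes). None of the 11 pair sites held a GLI core, beside 8.51% of all pair sites, and 11 sites are too few to show a difference.

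DNA replication and repair genes were at 8 pair sites, which held 9 of 128 genes (7.03%, beside 2.86% of all protein-coding genes). Of these 128 genes, 77 were paired. The 9 were thus 9 of 77 paired genes, beside 592 of 6355 paired genes over all (9.32%). The site of *Mcm7*, a subunit of the replicative helicase, and *Ap4m1* had its midpoint 49 bp from the *Mcm7* TSS and 236 bp from that of *Ap4m1*. *Pole* (65 bp), the catalytic subunit of DNA polymerase epsilon, and *Pxmp2* (55 bp) shared a site of 3220 bp, and *Ogg1* (171 bp) lay opposite *Gm15492* (54 bp). *Mcm4* and *Prkdc*, the catalytic subunit of DNA-dependent protein kinase, shared a site of 2498 bp, with the nearest coding TSSs 272 bp and 1359 bp from its midpoint. The others were *Smc3* (328 bp), *Fancd2* (429 bp), *Xrcc3* (866 bp) and *Pole3* (1161 bp). Of the 8 sites, that of *Fancd2* held a GLI core, beside 8.51% of all pair sites, and 8 sites are too few to show a difference.

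Mitochondrial genes were at 8 pair sites, with 10 of 187 genes (5.35%, beside 2.86% of all protein-coding genes). Of these 187 genes, 102 were paired. The 10 were thus 10 of 102 paired genes, beside 592 of 6355 paired genes over all (9.32%). *Hspd1* and *Hspe1*, the chaperonins that fold proteins in the mitochondrial matrix, start 108 bp apart, and a site of 2853 bp covered both, with its midpoint 146 bp from the TSS of *Hspd1* and 254 bp from that of *Hspe1*. *Mrpl47* and *Ndufb5*, a ribosomal protein and a complex I subunit, shared a site of 2491 bp, with its midpoint 356 bp from the coding TSS of *Ndufb5* and, for *Mrpl47*, 336 bp from the nearest coding TSS and 122 bp from the nearest TSS of any transcript. *Ndufa5* (23 bp) and *Ndufa4* (51 bp) of the respiratory chain, *Atp5d* (87 bp) of the ATP synthase and *Mrpl14* (226 bp) were each opposite a gene of other function. *Atp5f1* (662 bp) and *Uqcrh* (1605 bp) were farther away. None of these 8 sites held a GLI core, beside 8.51% of all pair sites, and 8 sites are too few to show a difference.

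**Figure D5:**
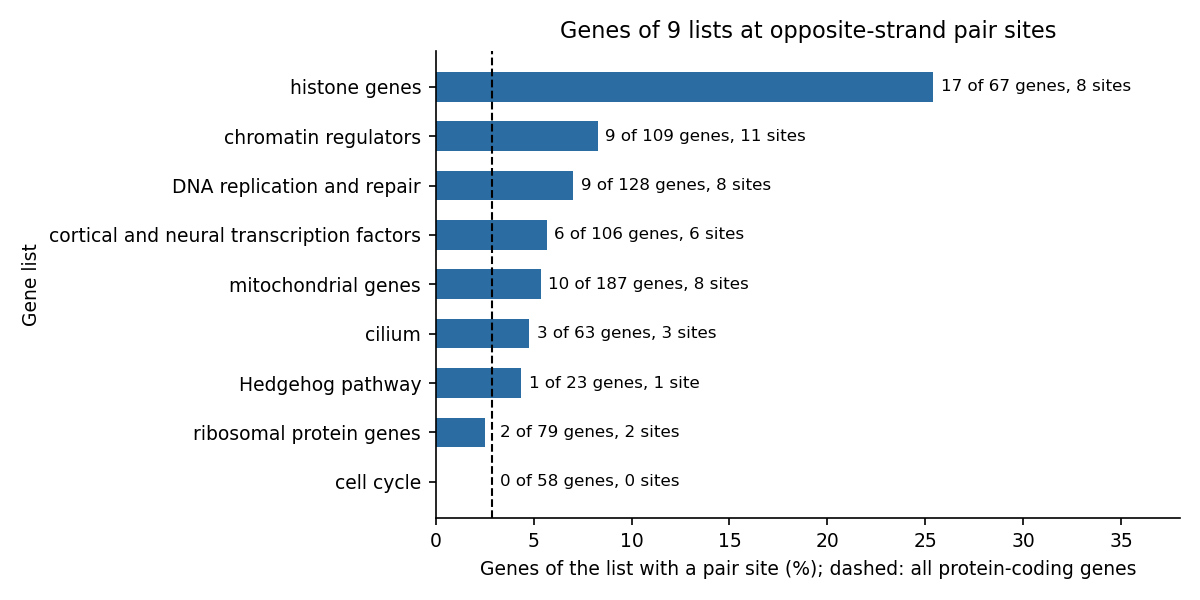
Percent of the genes of each of 9 lists that were at an opposite-strand pair site, with the number of genes and of sites beside each bar; the dashed line is the share of all protein-coding genes, 2.86%. Histone genes reach 25.4%, the other lists lie between 0 and 8.26%. The lists differ in how many of their genes are paired.

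Of 106 cortical and neural transcription factors, 29 had a site at a TSS (27.4%, beside 8.01% of all protein-coding genes) and 6 were at a pair site (5.66%, beside 2.86%), each with a noncoding partner. Of the 106, 51 were paired, and 9.32% of all paired genes were at a pair site. *Hes5* had its TSS 73 bp from the midpoint of the site of 8160 bp, and *Sox8*, a SoxE factor of glial cells, 73 bp from the midpoint of a site of 2073 bp with 1 core. At *Id4*, an inhibitor of bHLH factors, the midpoint was 980 bp away, at *Foxo1* 1491 bp, at *Pou3f2* 1502 bp and at *Nkx2-2* 1685 bp. For these 4 the noncoding TSS was the nearer, at 383, 392, 680 and 665 bp. Of 23 genes of the Hedgehog pathway, 11 were paired, 7 had a site at a TSS (30.4%) and *Ptch1* alone was at a pair site (4.35%).

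Of 63 genes of the cilium, the organelle through which Shh signals, 3 were at pair sites (4.76%, beside 2.86% of all protein-coding genes). They were *Ttbk2* (31 bp), a kinase that starts cilium assembly, *Arl6* (57 bp), a small GTPase of the Bardet-Biedl syndrome proteins, and *Cep83* (331 bp), a component of the distal appendages of the centriole. Of 79 ribosomal protein genes, 2 were at pair sites (2.53%, beside the same 2.86%), *Rpl15* with *Nkiras1* and *Rps29* with *Rn7s1*. Paired genes made up 26 of the 63 cilium genes and 32 of the 79 ribosomal protein genes, and 9.32% of all paired genes were at a pair site. The 3 cilium genes and 2 ribosomal protein genes are too few to show a difference. Of 58 cell cycle genes 10 had a site at a TSS (17.2%, beside 8.01% of all protein-coding genes) and 0 had a pair site, and 17 of the 58 were paired. The sites with the most genes were at *H2-Ke6*, *Ring1* and 3 noncoding genes and at *Hist2h3c1*, *Hist2h2aa1* and 3 noncoding genes, with 5 genes each. Next, with 4 genes, were *Gnb2*/*Gm17112*, where *Epo* also starts within 2 kb, and the histone pairs *Hist1h2bf*/*Hist1h2ad* and *Hist1h2ac*/*Hist1h2bc*.

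Pair sites were found on each of chromosomes 1 to 19. Their share of the sites of a chromosome ran from 7.05% on chromosome 16 (11 of 156) and 7.24% on chromosome 4 (21 of 290) to 15.7% on chromosome 6 (32 of 204) and 15.9% on chromosome 17 (25 of 157).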

How the data were processed

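ChIP-seq was performed by the authors on E15 wild-type cortex. According to their methods and the header of the list, fragments were sequenced from both ends with 85 bases used per end, repeats were filtered, reads were aligned to mm10 using bowtie2, and the optimal IDR set was deposited. MACS2 and SAMtools are named in the submitters' processing notes without versions, and the thresholds of peak calling are not given in the sources used here. The deposited values are positions (4 columns, other than counts or signal), so the number and width of sites depend on those settings. The 3 ChIP and 3 input samples enter as 1 pooled list, and depth is unknown.

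Starts were converted to 1-based coordinates. TSSs of all transcripts came from GENCODE M21 and sequence from GRCm38.p6, the assembly of mm10. When several gene pairs met the rule, the pair nearest to the midpoint was used, coding pairs first; where both genes are coding, which is named first carries no meaning. Shares have 95% Wilson intervals and medians 95% order-statistic intervals. Classes of sites were compared with two-sided permutation tests of medians and Fisher's exact tests, adjusted with the Benjamini-Hochberg method, and the strand of the core with an exact binomial test. The comparisons of coding with noncoding partners were added after the data were seen. The threshold was 0.05. Scripts were tested on simulated data. Statistics used scipy 1.17.1 and numpy 2.4.6 under Python 3.11.15, sequence was read with pysam 0.24.0, and plots were drawn with matplotlib 3.10.9.

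The members, the 9 gene lists and the tests were chosen with earlier results of these data known. Sites named are, by rule, the 12 of each kind with a core nearest to the midpoint, those of listed genes with distances for the 6 nearest, the 5 widest and 5 narrowest, the 5 shortest coding head-to-head distances, the 5 with most genes and those at the 2 kb limit. Printed sequences and any site named beyond these were chosen after their values were seen. Some sites and sequences that these rules take are not reported here. Other assays of the study were not analysed here.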

Additional observations from a re-analysis of the deposited data

Results flagged for a closer look

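Chromosome X lay outside the rule, and 4 of its 59 sites met the same criteria of distance and strand, beside 435 of the 4028 sites on chromosomes 1 to 19. They are given because the rule left this chromosome out, and no difference between the chromosomes was tested. They were at *Foxp3*/*Flicr*/*Ppp1r3f*, *Mid1ip1*, *Fam3a*/*Ikbkg* and *Atg4a*/*Psmd10*. They entered no comparison above.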

How the results depend on the processing

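Of 62 values recomputed under other settings, most kept their direction and their side of the threshold. The number of pair sites was 198 with both TSSs within 500 bp and 162 with coding partners only, in place of 435. The difference between paired and unpaired genes with a site, 4.88 percentage points, was 3.93 with sites within 1 kb and 6.47 with partners within 1 kb. The width difference with coding partners only, 206.5 bp, lost significance (permutation test, p = 0.104). The difference in GC content turned from 0.60 to -0.104 percentage points over the whole site (permutation test, p = 0.805). The odds ratio of the GLI core turned from 0.980 to 1.25 in the central 200 bp (Fisher's exact test, p = 0.774) and to 1.08 with coding partners only (p = 0.766), so it had no stable direction. Over the whole site 4 of the 11 other motifs passed the threshold in place of 0 (two-sided Fisher's exact tests): SP (odds ratio 1.45, adjusted p = 0.0108), NRF1 (1.52, 0.0108), ETS (1.69, 0.0108) and E-box (1.33, 0.0444). Whole pair sites are wider and so hold more sequence than unpaired ones, and the part of width in these was not tested. The share of sites nearer to the coding TSS turned from 56.4% to 45.4% when the 5′ end of each gene was used. The THAP11 odds ratio in sites with a CpG ratio of at least 0.6 could not be given because no unpaired site there held the motif. No paired analysis was possible because the replicates were joined into 1 list, and for the same reason no replicate could be left out. Sites are not replicates, so what the values would be in other embryos, or at another sequencing depth, is not shown.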

Other observations

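Several signalling and neuronal genes outside the gene lists were also at pair sites, and they are given as values only, chosen after their values were seen. *Fst*, an inhibitor of activins and BMPs, and the antisense gene *Gm47040* start 77 bp apart head-to-head, and a site of 5098 bp had its midpoint 21 bp from the TSS of *Fst*. *Wnt7a* (3251 bp wide) and *Wnt7b* (3470 bp wide), Wnt ligands of the developing cortex, each had a site over their TSS and a noncoding partner, and the *Wnt7b* site held a GLI core. *Fgfr3*, an FGF receptor of cortical progenitors, had a site of 5201 bp, *Fgf10*, an FGF ligand, a site of 4085 bp, and *Msi1*, an RNA-binding protein of neural progenitors, a site of 5333 bp. *Lfng*, a modifier of Notch signalling, had a site of 2260 bp, and *Dvl3*, a transducer of Wnt signals, a site of 1856 bp with its midpoint 34 bp from the *Dvl3* TSS.

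*Gad1*, which encodes a GABA-synthesising enzyme of interneurons, and *Gad1os* start 85 bp apart and shared a site of 4860 bp with a GLI core. This core was not between the starts but in an intron, 1840 bp from the TSS of *Gad1* and 1755 bp from that of *Gad1os*. *Nlgn2*, a neuroligin of inhibitory synapses, and *Tmem256* shared a site of 3159 bp with 2 cores. *Peg3* and *Usp29*, which are imprinted, start 157 bp apart and shared a site of 5205 bp. Its midpoint was 1811 bp from the TSS of *Peg3* and 1968 bp from that of *Usp29*. The CpG ratio in the central 500 bp, away from both starts, was 0.38. At the imprinted *Nnat* and its neighbour *Blcap*, with TSSs 103 bp and 226 bp from the midpoint, the ratio was 0.840. The values thus do not compare the promoters of these pairs.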
